A study of Mus musculus with 6 samples.

Results

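Genes of chloride, bicarbonate and proton transport were followed in the colorectum of colitis mice treated with berberine or sulfasalazine. The 10 genes, Slc26a2, Slc26a3, Slc26a6, Slc9a2, Slc9a3, Atp12a, Slc4a4, Slc12a2, Cftr and Best2, were selected by symbol from a table of 18268 genes, and each had 1 row. RNA sequencing was performed on 6 male C57BL/6 mice aged 8 to 10 weeks. All 6 drank 2.5% DSS (dextran sulfate sodium), which damages the colonic lining and brings on colitis, for 7 days, with gavage of a drug for 6 days. Berberine (BBR), an alkaloid of plants, was given at 100 mg/kg to 3 mice and sulfasalazine (SASP), a prodrug of an aminosalicylate prescribed for colitis, at 200 mg/kg to the other 3. Mice without DSS or without a drug were not analysed here, so each difference is between the drugs at these doses and gives no change from the untreated state. DSS colitis is a chemical injury in mice, which limits it as a model of human disease. The labels name colorectal tissue, and the study writes of rectal and of colon samples.

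The surface epithelium of the colon takes up sodium chloride by pairing sodium-proton exchangers of the SLC9 family with chloride-bicarbonate exchangers of the SLC26 family in the apical membrane. In the crypts, chloride enters cells from the blood side through the SLC12A2 cotransporter and leaves into the lumen through CFTR, and water follows. Bicarbonate for secretion is loaded by SLC4 family transporters, and it helps mucus to unfold and buffers acid at the surface. The distal colon also holds a proton-potassium pump, ATP12A, that recovers potassium in exchange for protons. Loss of these absorptive steps is a known part of the diarrhoea of colitis.

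Levels are given as FPKM (fragments corrected for transcript length and for the reads mapped in each mouse), which may be compared between genes. Differences are log2 fold changes of FPKM + 1, BBR minus SASP, fitted with limma over all 12072 genes that had at least 1 FPKM in at least 3 of the 6 mice. A gene passed the test with a Benjamini-Hochberg adjusted p under 0.05. All 10 transporters were tested. Summed FPKM ranged from 461163 to 487054 per mouse, and depth was estimated at 1.64e+07 to 1.82e+07 reads. BBR mouse 3 stood apart, with correlations across genes of 0.953 and 0.949 with BBR mice 1 and 2, against 0.987 between those. Its correlations with SASP mice 1, 2 and 3 were 0.920, 0.953 and 0.944, and those among the SASP mice were 0.982 to 0.989. The epithelial markers Krt8, Krt19 and Epcam averaged 2008, 1252 and 980 FPKM, and Hoxb13, a gene of the posterior gut, averaged 214 FPKM. Transporters whose test result changed without BBR mouse 3, and list counts that changed, are therefore given both ways. The log2 fold changes of the other transporters also shifted in that fit, as for Slc26a3 (0.31 to 0.16) and Slc12a2 (-0.18 to -0.11). In some alternative fits a covariate was added, the mean log2 value of 10 smooth muscle markers (smooth muscle score) or of 10 epithelial markers (epithelial score). The summed smooth muscle markers did not overlap between the drugs, so fits with that score cannot separate muscle content from the drug.

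Slc4a4 and Slc9a2 were higher under BBR than under SASP, and they were the 2 of 10 transporters that passed the test. Over all tested genes 8.86% passed, 3.82% with higher and 5.04% with lower values under BBR. Of the transporters, 7 had a log2 fold change above 0 and 3 had one below 0, while 60.8% of all tested genes were above 0. The median of the 10 log2 fold changes was 0.33, and that of all tested genes was 0.10. The groups did not overlap for 4 of the 10 genes, 3 higher (Slc4a4, Slc9a2 and Best2) and 1 lower (Atp12a) under BBR, against 37.9% of all tested genes (21.3% higher and 16.6% lower). At an unadjusted limma p of at most 0.05, 4 of the 10 passed, against 31.8% of all tested genes. These counts describe the 10 genes and set them apart from other genes in no tested way.

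**Figure D1:**
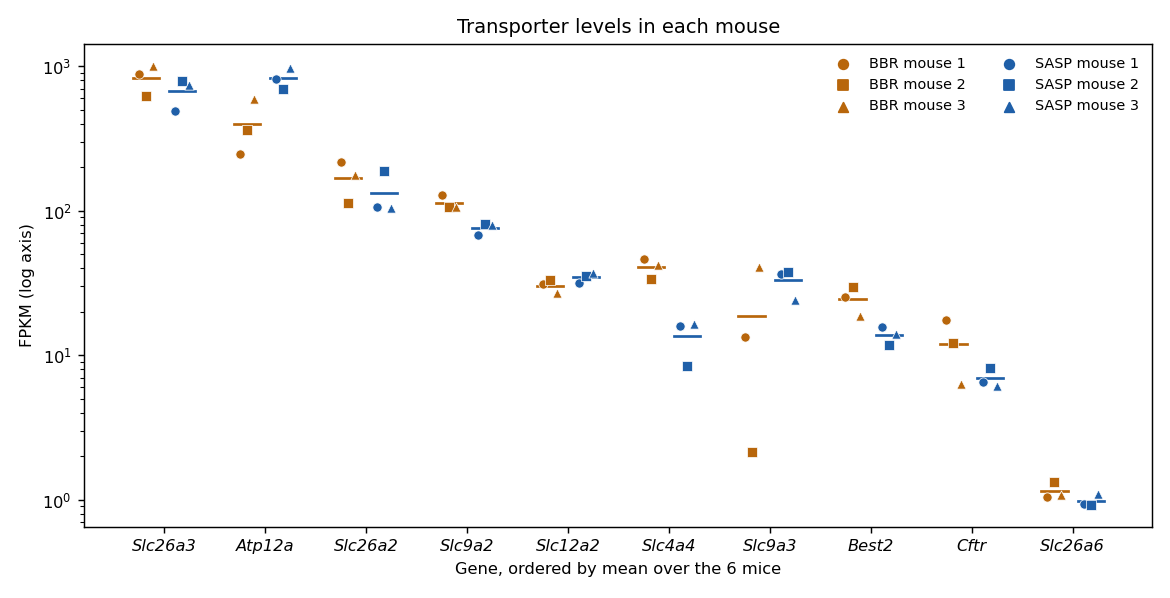
FPKM (log axis) of each transporter in each of the 3 BBR mice (orange) and 3 SASP mice (blue), with 1 symbol per mouse and a line at the group mean. Slc4a4, Slc9a2 and Best2 lay higher in all BBR mice than in any SASP mouse, Atp12a lay lower, and Slc9a3 ranged from 2.15 to 40.5 FPKM within the BBR group.

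Promoter sequences are shown for the 3 transporters whose values are set apart below by their difference between drugs, their spread between BBR mice or their high level. In the set of RefSeq promoters used, 5 of the 10 genes were matched by symbol (Slc26a3, Slc26a6, Slc9a3, Slc4a4 and Cftr). The others were absent from that set, which does not mean that RefSeq has no start site for them. Each run holds the 250 bases before the start, 5′ to 3′ on the plus strand of GRCm38.p6. The motifs searched, on both strands, were the TATA box TATAAA, the E-box CACGTG, the GC box GGGCGG and the CDX core CATAAA, the first and last of which share all letters but one and so cannot match at the same position. Capitals mark the matches, and CCGCCC is the GC box on the other strand. These motifs were held by 12.4%, 6.02%, 32.7% and 10.8% of 32851 promoters of the same length. The CDX core was not found in any of the 5 genes. Slc4a4 has 2 start sites in RefSeq, at chr5:88887010-88887259 and chr5:89027716-89027965, and its FPKM does not tell transcripts of the 2 starts apart.
Slc4a4 first start: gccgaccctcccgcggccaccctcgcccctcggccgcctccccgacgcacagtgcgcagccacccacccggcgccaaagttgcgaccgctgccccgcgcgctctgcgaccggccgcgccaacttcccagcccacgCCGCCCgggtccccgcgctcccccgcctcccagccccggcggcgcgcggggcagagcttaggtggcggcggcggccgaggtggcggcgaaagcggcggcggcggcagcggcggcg
Slc4a4 second start: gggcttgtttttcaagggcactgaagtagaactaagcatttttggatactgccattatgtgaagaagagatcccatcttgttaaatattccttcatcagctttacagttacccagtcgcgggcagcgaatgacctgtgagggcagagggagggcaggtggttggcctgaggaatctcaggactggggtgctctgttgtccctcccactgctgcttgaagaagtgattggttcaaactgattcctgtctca
Slc9a3 (chr13:74121163-74121412): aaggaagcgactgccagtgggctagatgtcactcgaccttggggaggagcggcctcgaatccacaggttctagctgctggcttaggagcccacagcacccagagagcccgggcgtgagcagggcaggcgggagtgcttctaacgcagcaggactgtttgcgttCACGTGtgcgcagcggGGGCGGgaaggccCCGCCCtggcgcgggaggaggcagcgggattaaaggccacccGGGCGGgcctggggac
Slc26a3 (chr12:31437969-31438218): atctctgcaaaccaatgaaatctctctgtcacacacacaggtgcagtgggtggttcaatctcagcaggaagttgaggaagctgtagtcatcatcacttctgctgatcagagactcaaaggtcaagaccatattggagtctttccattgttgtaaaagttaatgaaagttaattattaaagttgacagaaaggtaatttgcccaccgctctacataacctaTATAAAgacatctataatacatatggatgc
The first Slc4a4 window was 82.0% G and C with 1 GC box, and the second was 48.8% G and C with no match. The Slc9a3 window held 3 GC boxes and 1 E-box, the sequence bound by clock and MYC family factors, which began 87 bases before the start. The Slc26a3 window was 38.8% G and C and held 1 TATA box, which began 30 bases before the start. Of the others, the Cftr window held 6 GC boxes and the Slc26a6 window held 1. A match describes the sequence and is no evidence that a factor bound it in these mice.

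Among the apical anion exchangers, Slc26a3 and Slc26a2 were abundant, Slc26a6 was near 1 FPKM, and none passed the test. Slc26a3 encodes the exchanger known as DRA, which takes up chloride in return for bicarbonate and is lost in congenital chloride diarrhoea. It measured 877, 618 and 1004 FPKM in BBR mice 1, 2 and 3 and 487, 792 and 746 FPKM in SASP mice 1, 2 and 3. The groups overlapped, with BBR mouse 2 below 2 of the SASP mice. The means were 833 ± 197 (SD, n = 3) and 675 ± 164 (SD, n = 3) FPKM. The log2 fold change was 0.31 (SE 0.26, limma adjusted p = 0.434), with a 95% interval from -0.30 to 0.91, which holds both lower and higher levels under BBR. Its sign turned with a smooth muscle score as covariate (-0.25).

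Slc26a2 encodes a sulfate transporter that supplies the sulfation of mucins and matrix. It measured 217, 113 and 176 FPKM under BBR and 106, 189 and 105 FPKM under SASP. BBR mouse 2 was among the low values and SASP mouse 2 among the high ones, and the SD within each group was larger than the gap between means (169 ± 52.3 and 133 ± 48.1 FPKM, SD, n = 3 each). On the log2 scale the difference was 0.35 (SE 0.31, limma adjusted p = 0.460), with a 95% interval from -0.38 to 1.08. In every mouse Slc26a2 took place 3 in level among the 10 transporters.

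Slc26a6 encodes an exchanger known chiefly from small intestine and pancreas. It was last among the 10 in every mouse, at 1.05, 1.32 and 1.08 FPKM under BBR and 0.93, 0.92 and 1.10 FPKM under SASP. The groups overlapped, and on the estimated depth these values rest on 72.0 to 94.6 reads per mouse. The difference was 0.12 on the log2 scale (SE 0.13, limma adjusted p = 0.570, 95% interval -0.20 to 0.43), and quantile normalization turned its sign (-0.03).

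Of the sodium-proton exchangers, Slc9a2 was higher under BBR in all 3 mice, and Slc9a3 was split within the BBR group. Slc9a2 encodes NHE2, an apical exchanger of surface and crypt cells. It measured 128, 106 and 106 FPKM under BBR and 67.7, 80.5 and 79.6 FPKM under SASP. The lowest BBR mouse was above the highest SASP mouse, and the level varied little within groups (113 ± 12.7 and 75.9 ± 7.18 FPKM, SD, n = 3 each). The ratio of means was 1.49 and the log2 fold change 0.57 (SE 0.12, limma adjusted p = 0.0394, 95% interval 0.28 to 0.86). The direction held in each alternative tried. The adjusted p went to 0.101, 0.0824, 0.157, 0.0803 and 0.130 on leaving out BBR mouse 1, BBR mouse 2, SASP mouse 1, SASP mouse 2 and SASP mouse 3, and to 0.0152 without BBR mouse 3. It was also lost with median-ratio scaling (0.0676), with no filter (0.0574) and with the epithelial (0.0590) or smooth muscle (0.267) score as covariate.

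Slc9a3 encodes NHE3, the exchanger held to carry most electroneutral sodium absorption in the gut. It measured 13.4, 2.15 and 40.5 FPKM in BBR mice 1, 2 and 3 and 36.6, 37.9 and 24.1 FPKM in the SASP mice. BBR mice 1 and 2 were below all SASP mice, whereas BBR mouse 3 was above all of them. The highest BBR mouse was 18.8 times the lowest, against 1.57 times in the SASP group. On FPKM + 1 this spread was 13.2-fold, a size reached by 23 of the 12072 tested genes, whose median was 1.34-fold. Over all mice the log2 fold change was -1.43 (SE 0.83, limma adjusted p = 0.273), with a 95% interval from -3.40 to 0.55. Leaving out BBR mouse 3 gave -2.30 (adjusted p = 0.0316), and leaving out BBR mouse 2 gave -0.44 (adjusted p = 0.584). The lowest value, in BBR mouse 2, rests on about 181 reads, so it was not near the limit of detection.

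Of the calcium-activated chloride channel regulators of the Clca family, 5 were in BBR mouse 3 at least 6.9 times the higher of BBR mice 1 and 2. This pattern was selected after its values were seen. These genes encode secreted or membrane-bound proteins of epithelial cells that act on mucus and on calcium-activated chloride currents. Clca4b measured 2.59, 0.43 and 1105 FPKM under BBR and 1658, 1186 and 861 FPKM under SASP. Clca4a measured 22.9, 17.5 and 338 FPKM under BBR and 233, 276 and 274 FPKM under SASP. BBR mouse 3 resembled the SASP mice for both genes, and BBR mice 1 and 2 were far below. Clca3b, Clca3a2 and Clca3a1 were also highest among BBR mice in mouse 3, at 6.91, 33.9 and 7.27 times the higher of the other 2. None of the 5 genes passed the test with all 6 mice (limma adjusted p from 0.124 for Clca4b to 0.939 for Clca3a1). They are close paralogs, so reads may have been divided among them with error. The division was not the same in detail, since BBR mouse 1 had 13.4 and BBR mouse 2 had 2.15 FPKM of Slc9a3 but 29.4 and 29.1 FPKM of Clca3b. Clca2 and Clca1 were not split to this extent, although Clca1 was also highest among the BBR mice in mouse 3. Clca2 was too low to be tested, with 0.53, 0.48 and 0.52 FPKM under BBR and 0.15, 0.28 and 0.19 FPKM under SASP. Clca1, a goblet cell product, measured 4083, 3700 and 4674 FPKM under BBR and 2210, 3947 and 3357 FPKM under SASP.

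**Figure D2:**
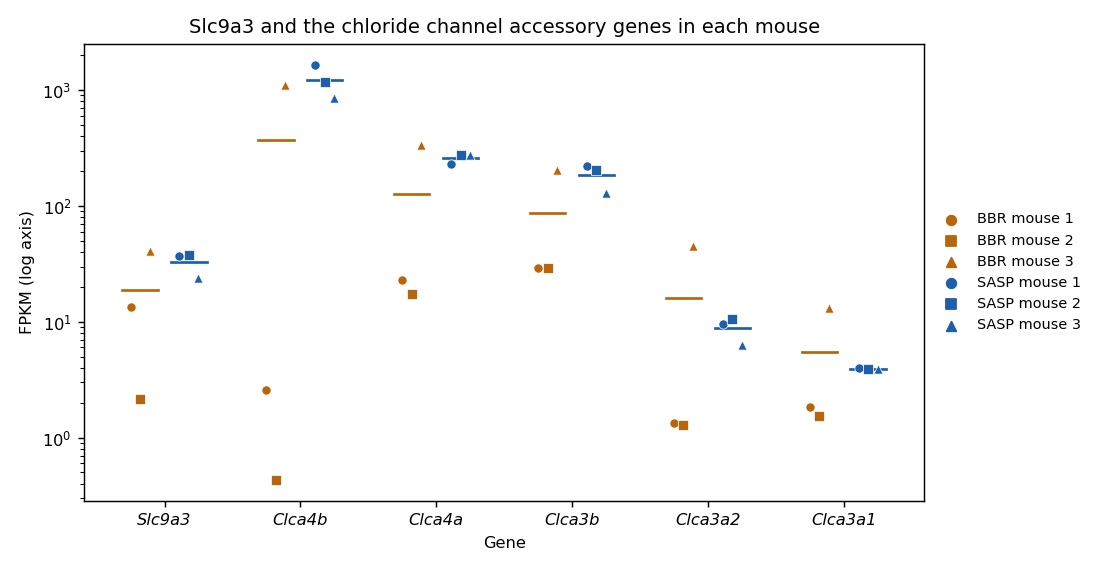
FPKM (log axis) of Slc9a3 and 5 Clca genes in each mouse, with BBR in orange, SASP in blue, 1 symbol per mouse and a line at the group mean. BBR mouse 3 (triangle) lay above BBR mice 1 and 2 for all 6 genes, most of all for Clca4b with 1105 against 2.59 and 0.43 FPKM.

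The genes nearest to Slc9a3 over the 6 mice were 1810065E05Rik, Ptk6, Aqp4, Wfdc17 and Rdh9, with root mean square differences of 0.50 to 0.60 log2 units after each gene was centred on its mean. This list was also drawn up after the values of Slc9a3 were seen. Ptk6, a kinase of differentiated epithelial cells, measured 11.8, 6.95 and 44.5 FPKM under BBR and 35.3, 51.6 and 38.5 FPKM under SASP. Aqp4, a basolateral water channel, measured 69.7, 23.3 and 108 FPKM under BBR and 110, 169 and 84.0 FPKM under SASP. BBR mouse 2 was the lowest of all 6 mice for Slc9a3 and for both of these genes. They were picked for their likeness to Slc9a3 over these mice, so this shared order is no separate result.

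Atp12a, the colonic proton-potassium pump, was lower in every BBR mouse than in any SASP mouse, without passing the test. It measured 247, 359 and 589 FPKM under BBR and 813, 696 and 966 FPKM under SASP. BBR mouse 3 lay nearest to the SASP group. The means were 398 ± 174 (SD, n = 3) and 825 ± 135 (SD, n = 3) FPKM, a ratio of 0.483. This was a difference of -1.13 log2 units (SE 0.31, limma adjusted p = 0.0657), with a 95% interval from -1.87 to -0.39. Without BBR mouse 3 it was -1.45 (limma adjusted p = 0.00574), in a fit that 33.8% of all genes passed. Leaving out any other mouse gave adjusted p from 0.113 (SASP mouse 2) to 0.198 (SASP mouse 1), and the smooth muscle score as covariate gave 0.202. As a share of the summed FPKM of the 10 genes, Atp12a made up 15.4% to 29.3% under BBR and 37.4% to 51.4% under SASP, so that Slc26a3 was the most abundant in all 3 BBR mice and Atp12a in SASP mice 1 and 3.

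Slc4a4 differed most between the drugs among the 4 genes of chloride secretion and bicarbonate supply. It encodes NBCe1, a basolateral cotransporter that brings bicarbonate into cells together with sodium. Its level was 46.5, 33.7 and 41.9 FPKM under BBR and 15.9, 8.36 and 16.5 FPKM under SASP. The lowest BBR mouse had 33.7 FPKM and the highest SASP mouse 16.5 FPKM, and BBR mouse 3 lay between the other BBR mice. The means were 40.7 ± 6.50 (SD, n = 3) and 13.6 ± 4.51 (SD, n = 3) FPKM, a ratio of 3.003. The log2 fold change was 1.56 (SE 0.26, limma adjusted p = 0.0205, 95% interval 0.95 to 2.17), above that of 99.7% of tested genes. The direction held in all 16 alternatives and the call in 12. Without BBR mouse 1, SASP mouse 1 or SASP mouse 3 the adjusted p was 0.0708, 0.0738 or 0.0697, and with the smooth muscle score as covariate the difference was 1.90 (adjusted p = 0.128).

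Best2 encodes bestrophin 2, a bicarbonate-permeable anion channel of colonic goblet cells. It measured 25.3, 29.6 and 18.5 FPKM under BBR and 15.7, 11.8 and 14.1 FPKM under SASP. The groups did not overlap, although BBR mouse 3 was only slightly above SASP mouse 1. The log2 fold change was 0.76 (SE 0.19, limma adjusted p = 0.0525), with a 95% interval from 0.32 to 1.21. It passed in 4 of 16 alternatives. The limma adjusted p was 0.0349 with quantile normalization, 0.0474 with median-ratio scaling and 0.00642 without BBR mouse 3 (log2 fold change 0.94). On leaving out BBR mouse 1, BBR mouse 2, SASP mouse 1, SASP mouse 2 or SASP mouse 3 it was 0.123, 0.128, 0.141, 0.130 or 0.153. With no filter it was 0.0817, and with the epithelial or smooth muscle score as covariate 0.0761 or 0.124. Among 10 goblet cell markers 0 passed the limma test, also at an unadjusted p of at most 0.05, and their median log2 fold change was 0.20. The summed level of these markers was 12446 to 24524 FPKM under BBR and 10617 to 15659 FPKM under SASP, and its part in the Best2 values was not tested.

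Cftr, the chloride channel opened by cAMP, measured 17.5, 12.2 and 6.35 FPKM under BBR and 6.49, 8.17 and 6.13 FPKM under SASP. BBR mice 1 and 2 were above all SASP mice, and BBR mouse 3 was within the SASP range. Its log2 fold change was 0.62 (SE 0.32, limma adjusted p = 0.225, 95% interval -0.14 to 1.38) with all mice and 0.98 (adjusted p = 0.0121) without BBR mouse 3.

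Slc12a2, the sodium-potassium-chloride cotransporter NKCC1 that loads crypt cells with chloride, was the steadiest of the 4. It measured 30.9, 33.1 and 27.0 FPKM under BBR and 31.5, 35.3 and 36.9 FPKM under SASP. The groups overlapped, and the coefficient of variation was 10.2% and 7.94%. Its log2 fold change was -0.18 (SE 0.12, limma adjusted p = 0.304), with a 95% interval from -0.46 to 0.09.

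**Figure D3:**
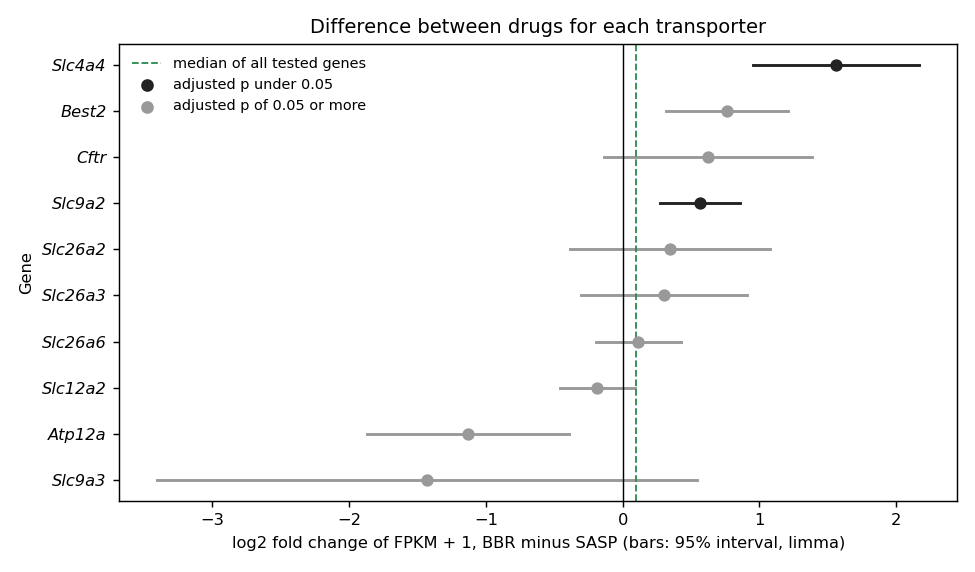
Log2 fold change of FPKM + 1, BBR minus SASP, with its 95% limma interval for each transporter, in black where the adjusted p was under 0.05. Slc4a4 (1.56) and Slc9a2 (0.57) passed, the intervals of Best2 and Atp12a also left out 0, and the dashed line marks the median of all tested genes (0.10).

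BBR mouse 3 decided several of these calls. Without it, 6 of the 10 transporters passed the test, Slc4a4, Slc9a2, Best2 and Cftr with higher and Atp12a and Slc9a3 with lower values under BBR, while 33.8% of all 11878 genes tested in that fit passed (22.3% higher and 11.5% lower). Leaving out any other mouse left at most 1 call among the 10 genes. With array quality weights, which let the fit trust some mice more than others, 8 of the 10 passed, but so did 59.0% of all tested genes. BBR mouse 3 was the highest BBR mouse for Slc26a3, Slc9a3 and Atp12a and the lowest for Cftr, Best2 and Slc12a2. For Slc26a2, Slc26a6, Slc9a2 and Slc4a4 it lay between the other 2.

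**Figure D4:**
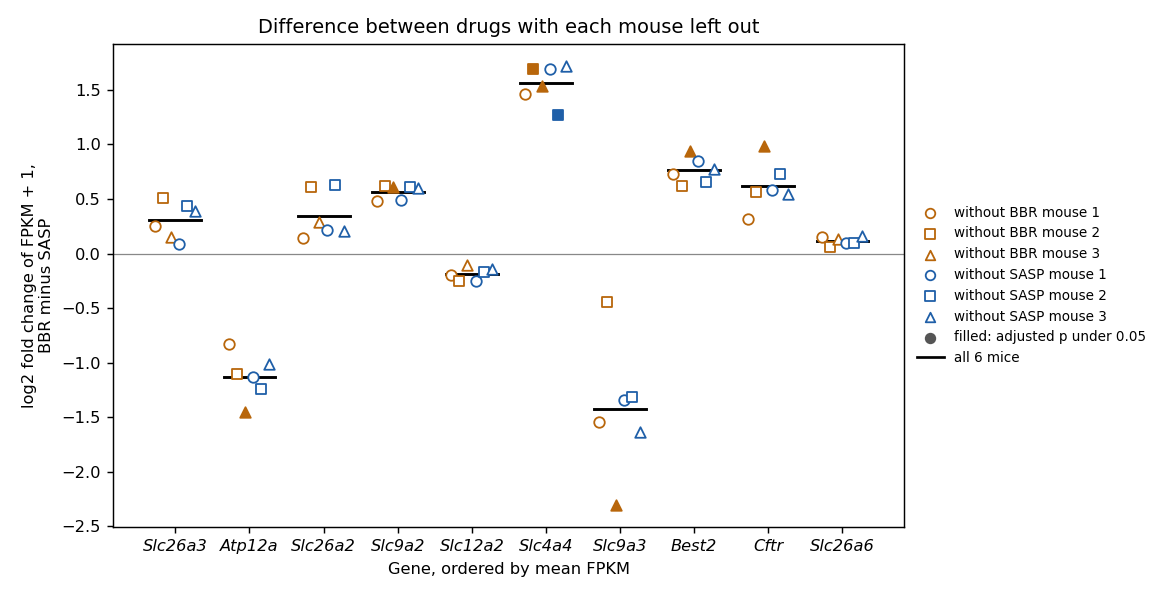
Log2 fold change of each transporter (FPKM + 1, BBR minus SASP) with all 6 mice (line) and with each mouse left out (symbols, filled where the limma adjusted p was under 0.05). Without BBR mouse 3, 6 of the 10 genes were past the threshold, and the Slc9a3 value ranged from -2.30 to -0.44.

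The levels also gave an order. Slc26a3, Atp12a, Slc26a2 and Slc9a2 held the top 4 places in every mouse, and Slc26a6 held the last. Slc26a3 and Atp12a overlapped in level over the 6 mice. Between Slc12a2, Slc4a4, Slc9a3, Best2 and Cftr the order changed from mouse to mouse. Slc4a4 took place 5 in all 3 BBR mice and place 7 or 8 in the SASP mice, and Slc9a3 took place 9 in BBR mice 1 and 2 and place 5 or 6 in the others.

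The tested genes most like Slc4a4 over the 6 mice were Abcg5, Fam189a2 and Acsl3, with root mean square differences of 0.27, 0.30 and 0.34 log2 units after centring. Abcg5, one partner of a sterol exporter, measured 34.1, 23.9 and 26.2 FPKM under BBR and 11.98, 8.82 and 8.92 FPKM under SASP. Acsl3, which activates long-chain fatty acids, measured 126, 115 and 84.8 FPKM under BBR and 39.7, 33.1 and 33.4 FPKM under SASP. For Slc9a2 the nearest genes were Osbpl6, Inca1 and Rnf130, at 0.035, 0.053 and 0.055 log2 units. Rnf130, a ubiquitin ligase, measured 70.2, 59.4 and 55.3 FPKM under BBR and 39.6, 43.8 and 42.3 FPKM under SASP. Genes were ranked by this measure only, and nothing on shared control follows from it.

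Around the 10 transporters, 108 genes of the same transport steps and their control were listed, of which 106 were in the table and 72 were tested. The test was passed by 7 of the 72 (9.72%), 5 higher and 2 lower under BBR, close to the 8.86% of all tested genes. Their median log2 fold change was 0.23. List counts without BBR mouse 3, given below, stand beside the 33.8% of all genes that passed in that fit.

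Among the relatives of the anion exchangers, 2 of 3 tested genes passed, both higher under BBR. Slc4a2 encodes AE2, a basolateral chloride-bicarbonate exchanger. It measured 52.0, 42.4 and 36.9 FPKM under BBR and 18.8, 26.2 and 21.3 FPKM under SASP, without overlap and with a difference of 0.96 log2 units (SE 0.17, limma adjusted p = 0.0245). Slc26a11, a sulfate and chloride transporter of low level, measured 3.48, 3.78 and 2.39 FPKM under BBR and 1.40, 1.49 and 1.59 FPKM under SASP, a difference of 0.74 log2 units (SE 0.17, limma adjusted p = 0.0418). The count of 2 was 2 without BBR mouse 3, 1 without SASP mouse 2, with no filter or with the epithelial score, and 0 without BBR mouse 1, BBR mouse 2, SASP mouse 1 or SASP mouse 3 and with the smooth muscle score. None of the 4 tested relatives of the sodium-proton exchangers passed (1 at an unadjusted limma p of at most 0.05, and 1 past the adjusted threshold without BBR mouse 3). Of 6 tested bicarbonate and cation-chloride cotransporters none passed (1 at an unadjusted limma p of at most 0.05, and 3, all higher, past the adjusted threshold without BBR mouse 3), although all 6 had log2 fold changes above 0 with the values as deposited (median 0.39), and the most abundant, the potassium-chloride cotransporter Slc12a7, differed by 0.48 (limma adjusted p = 0.110).

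Among 22 other chloride channel genes, 11 had log2 fold changes above 0 and 11 below 0, and 1 passed as higher and 2 as lower under BBR. The count of 3 was 12 without BBR mouse 3 (4 higher and 8 lower), when 33.8% of all genes passed, and 14 with array weights, when 59.0% of all genes passed. It was 2 without SASP mouse 2 and 0 without any 1 of the other 4 mice or with the smooth muscle score. Ano10, a member of the anoctamin family, measured 32.7, 30.7 and 27.8 FPKM under BBR and 13.9, 21.9 and 15.5 FPKM under SASP (log2 fold change 0.82, limma adjusted p = 0.0385). Clic1, an intracellular chloride channel protein, measured 168, 170 and 187 FPKM under BBR and 300.4, 233 and 267 FPKM under SASP (-0.60, limma adjusted p = 0.0377). Clic5, a relative found with ezrin at microvilli, measured 109, 114 and 113 FPKM under BBR and 341, 156 and 304 FPKM under SASP (-1.17, limma adjusted p = 0.0483). The 3 genes did not overlap between groups, and SASP mouse 2 was the SASP mouse nearest to the BBR group for each.

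Ahcyl2, which encodes a regulator of NBCe1 of the IRBIT family, was the 1 of 11 genes of the WNK, SPAK and cAMP list that passed. It measured 148, 107 and 111.5 FPKM under BBR and 57.9, 65.9 and 48.6 FPKM under SASP, a difference of 1.07 log2 units (SE 0.17, limma adjusted p = 0.0185). The count of this list was 3 without BBR mouse 3, all higher, and 0 without BBR mouse 1, SASP mouse 1 or SASP mouse 3. Fxyd4, known as CHIF, a small partner of the sodium pump, was the 1 of 10 genes of the pump and basolateral potassium channel list that passed. It measured 226, 261 and 195 FPKM under BBR and 62.6, 80.6 and 108 FPKM under SASP, a difference of 1.46 log2 units (SE 0.21, limma adjusted p = 0.0157). The count of this list was 4 without BBR mouse 3 (3 higher and 1 lower) and 0 without BBR mouse 1 or SASP mouse 1. None of 11 genes of the apical scaffolds and cGMP control passed (3 at an unadjusted limma p of at most 0.05, and 2, both higher, past the adjusted threshold without BBR mouse 3). The gene of this list with the highest mean over the 6 mice, Guca2a, which encodes guanylin, owed its place to BBR mouse 3 and measured 282, 139 and 1055 FPKM under BBR and 61.9, 232 and 123.0 FPKM under SASP. Ezr, which encodes the membrane linker ezrin, was above it in BBR mouse 2 (284 FPKM), SASP mouse 1 (244 FPKM) and SASP mouse 3 (225 FPKM). None of 5 carbonic anhydrases passed (3 at an unadjusted limma p of at most 0.05, and 3 of 4, 1 higher and 2 lower, past the adjusted threshold without BBR mouse 3), and the most abundant, Car4, measured 1754, 1491 and 2530 FPKM under BBR and 2182, 2341 and 2372 FPKM under SASP.

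**Figure D5:**
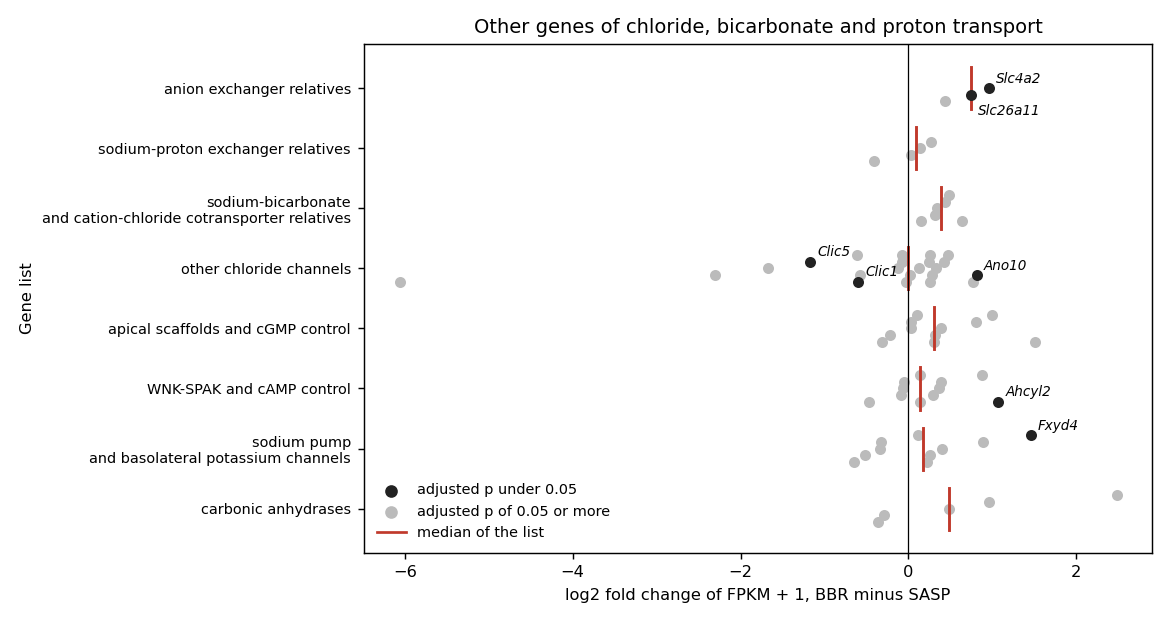
Log2 fold change of FPKM + 1 (BBR minus SASP) of the 72 tested genes in 8 lists of transport genes other than the 10, with 1 point per gene, a red line at each list's median and black points for a limma adjusted p under 0.05. The test was passed by 7 genes, Slc4a2, Slc26a11, Ano10, Ahcyl2 and Fxyd4 to the right of 0 and Clic1 and Clic5 to the left, and Clca4b (-6.06) lay farthest left without passing.

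The levels of cell type markers are given beside these results. The 10 smooth muscle markers were all higher under BBR by log2 fold change (median 1.32, 0 past the adjusted threshold and 8 at an unadjusted limma p of at most 0.05), and their summed level was 3183 to 7414 FPKM under BBR and 863 to 2622 FPKM under SASP. The 8 pan-leukocyte markers were all lower (median -0.65, 0 past the adjusted threshold and 6 at an unadjusted limma p of at most 0.05), with sums of 28.1 to 45.2 FPKM under BBR and 47.2 to 84.7 FPKM under SASP. The 10 general epithelial markers had a median of 0.04, with Krt18 higher and Vil1 lower past the threshold, and sums of 6429 to 6790 FPKM under BBR and 6345 to 7394 FPKM under SASP. The 10 surface colonocyte markers had a median of 0.14, with Slc20a1 higher and Mall lower past the threshold, and the 5 tested crypt base and stem cell markers had a median of -0.14, with Sox9 higher and Cdca7 lower. These 6 markers were named after their values were seen. The stem cell markers Lgr5, Ascl2 and Olfm4 were below 1 FPKM in all mice and were not tested. The 7 posterior Hox genes had a median of 0.20 and none passed the adjusted threshold (1 at an unadjusted limma p of at most 0.05). Their sum was 377, 443 and 223 FPKM in BBR mice 1, 2 and 3 and 293, 256 and 313 FPKM in the SASP mice. That of BBR mouse 3 was the lowest of the 6. BBR mouse 3 also had the highest smooth muscle sum (7414 FPKM against 3183 and 3402 FPKM in BBR mice 1 and 2). The same held for its goblet cell sum (24524 FPKM against 14215 and 12446 FPKM). Whether its tissue differed in make-up or gut position was not tested. Without BBR mouse 3, when 33.8% of all genes passed, 5 of 10 epithelial (2 higher, 3 lower) and 5 of 10 surface colonocyte markers (1 higher, 4 lower) passed. In that fit 4 of 7 posterior Hox genes (all higher), 2 of 5 crypt markers (1 higher, 1 lower) and 1 of 10 goblet cell markers (lower) also passed. No smooth muscle or leukocyte marker did. Leaving out any other mouse left at most 1 call in each marker list. No defining marker of these lists was at 0 in all mice. In such bulk tissue, fewer cells of a type and less RNA per cell cannot be told apart, and the part of these markers in the transporter values was not tested beyond the covariates named above. The smooth muscle score cannot serve as such a test, since the sums of its markers did not overlap between the drugs.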

How the data were processed

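Transcript levels were measured by RNA sequencing in colorectal tissue of 3 BBR and 3 SASP mice, grouped by their treatment label. FPKM values were calculated per gene and mouse by the authors and deposited to 2 decimals. The submitters' processing notes name Bowtie2 2.2.5, RSEM 1.2.12 and mm9, so no coordinates other than those of the RefSeq promoters (GRCm38.p6) are given. The labels name an Illumina TruSeq kit, whereas the study describes depletion of ribosomal RNA. FPKM are not counts, and no count model was used. FPKM + 1 was log2 transformed, and groups were compared with limma 3.58.1 in R 4.3.3 (two-sided, mean-variance trend, Benjamini-Hochberg adjustment). The fit was tested on simulated data. With 3 against 3 mice an exact permutation test cannot give a p below 0.1, so none was used. Nothing but the mouse labels separates the samples of a group. The p-values therefore set the difference between drugs against the spread between these mice, which limma estimates partly from other genes. The transporters and gene lists were chosen with earlier results of these data known. Named genes were, per list, those past the threshold or else the most abundant, and, for each transporter past the threshold, the 3 genes with the nearest pattern over the 6 mice. The most abundant gene of 1 list is not reported here. Depth was estimated from 31 to 56 genes per mouse seen in 1 mouse only, and is approximate.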

Additional observations from a re-analysis of the deposited data

How the results depend on the processing

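With all 6 mice 1069 genes passed the test. This count was 3837 at an unadjusted p of at most 0.05, 2620 at an adjusted p under 0.1, 608 with no filter, 1728 with quantile normalization, 1684 with median-ratio scaling, 7126 with array quality weights, 18 with the smooth muscle score and 706 with the epithelial score as covariate, and 51 to 4018 on leaving out 1 mouse (51 without SASP mouse 3, 4018 without BBR mouse 3). The count of transporters past the threshold, 2 of 10, was 4 at an unadjusted p of at most 0.05, 4 at an adjusted p under 0.1, 1 with no filter, 8 with array quality weights (59.0% of all genes then passed), 0 with the smooth muscle score, 1 with the epithelial score and 0 to 6 on leaving out 1 mouse. Their median log2 fold change was 0.064 with the smooth muscle score and 0.15 to 0.54 on leaving out 1 mouse. Slc26a3 turned sign with the smooth muscle score (-0.25) and Slc26a6 with quantile normalization (-0.028), and neither passed the test in any fit. Median-ratio scaling moved the median of all genes by -0.12, and the share of calls that were higher under BBR was 43.1% with the values as deposited, 29.6% with this scaling and 65.1% with array weights. The cause of these shifts was not tested. No paired analysis was possible because the mice of the groups share no replicate number in the labels. Depth limits mainly Slc26a6. With 3 mice a group, the intervals of Slc26a2, Slc26a3, Slc26a6, Slc9a3, Slc12a2 and Cftr include both directions.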
